A study of Mus musculus with 12 samples.

Results

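Chil1 and Chil3 are the pair of chitinase-like genes described here, 2 of the 26938 genes with at least 1 count in a single-cell RNA sequencing table of MC38 tumors. MC38 is a mouse colon adenocarcinoma line of C57BL/6 origin. They were selected on their measured levels by host strain and by cell cluster in these same data, Chil1 being nearly absent in some strains. Levels by strain and by cluster are therefore given as a description without a test, and only the response to treatment was tested.

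Chitinase-like proteins keep the barrel fold of the glycoside hydrolase family 18 (GH18) chitinases but have lost the catalytic residue needed to cut chitin. Chil1 is the mouse counterpart of human CHI3L1, a secreted glycoprotein of macrophages, neutrophils and epithelium for which Il13ra2, Tmem219 and Cd44 have been reported as receptors. Chil3, also called Ym1, is a rodent protein secreted by monocytes, neutrophils and macrophages, and it is widely used together with Arg1 and Retnla as a marker of macrophages activated through the interleukin 4 receptor and Stat6.

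The tumors grew under the skin of female mice aged 8 to 12 weeks after injection of MC38 cells. Hosts were C57BL/6J (B6) or F1 offspring of C57BL/6J with a Collaborative Cross strain (CC001, CC002, CC007, CC036, CC075, CC079 or CC080), so every host carried at least 1 B6 genome. At a volume of 75 to 110 mm3 each mouse was dosed once, with 200 µg of an antibody against PD-1 (29F.1A12, aPD1) or of an isotype control (2A3). Tumors were collected after 48 h. Each of 12 pools joined 4 hashtagged tumors, an isotype and an aPD1 tumor of each of 2 host strains, sorted to 90% CD45+ and 10% CD45- cells. This gave 48 tumors, with 4 tumors of CC007, 8 of CC001 and 6 of each other strain.

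The table held 93126 cells with a median of 3333.5 UMIs, and a tumor contributed 53 to 3082 cells and 88816 to 17713491 UMIs. Markers placed 10 of the 27 deposited clusters in a monocyte/macrophage class of 68059 cells, 73.1% of the total, in which 7 to 9 of 9 class markers reached 100 CPM, the count of a gene for every 1000000 UMIs of the same cells. These cells are called macrophages here. Cluster 16, with 529 cells, was named granulocytic from S100a8, S100a9, Retnlg, Csf3r and Cxcr2. A tumor contributed 30 to 2394 macrophages. The smallest tumors held 53 cells (CC007, aPD1, pool 6), 248 cells (CC002, isotype, pool 12) and 345 cells (B6, isotype, pool 7). Of the distinct cell barcodes, 5.67% occurred in more than 1 library, and 1 animal number stood on both a CC080 isotype and a CC080 aPD1 tumor. Isotype and aPD1 tumors always carried different hashtags, so hashtag and treatment cannot be told apart.

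The genes lie on different chromosomes of GRCm38. Chil1 (ENSMUSG00000064246.10) occupies chr1:134182176-134190181 on the plus strand, and its principal transcript has 10 exons and 389 codons. Chil3 (ENSMUSG00000040809.10) occupies chr3:106147554-106167564 on the minus strand, with 11 exons and 398 codons, beside Chil4 at chr3:106201490-106219507. The 250 bases before each RefSeq start site (GRCm38.p6, the sequence of the B6 strain) are shown because the pair differed in how its level followed the strain, at chr1:134181906-134182155 (plus strand) for Chil1 and chr3:106167565-106167814 (minus strand) for Chil3, with matches to the motifs searched in capitals.
Chil1 upstream: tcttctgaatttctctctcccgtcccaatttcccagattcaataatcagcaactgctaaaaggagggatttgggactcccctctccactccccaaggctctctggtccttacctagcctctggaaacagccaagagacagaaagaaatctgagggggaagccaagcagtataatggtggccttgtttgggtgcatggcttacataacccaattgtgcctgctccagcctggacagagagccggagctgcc
Chil3 upstream: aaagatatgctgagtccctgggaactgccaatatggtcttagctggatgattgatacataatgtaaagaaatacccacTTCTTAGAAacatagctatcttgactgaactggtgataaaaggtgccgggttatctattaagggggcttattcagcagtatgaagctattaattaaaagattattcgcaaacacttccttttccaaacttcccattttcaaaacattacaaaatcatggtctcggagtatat
Both strands were searched for 6 motifs, namely the TATA box (TATAAA), the STAT pattern TTCNNNGAA, the wider STAT6 pattern of TTC and GAA set 4 bases apart, a C/EBP pattern written TTNNGCAA, the PU.1 core as GAGGAA, and the AP-1 site TGANTCA. The Chil1 window held none of them. The Chil3 window held only TTCNNNGAA, as TTCTTAGAA, 172 bases before the start, a pattern present in 7.02% of 32851 RefSeq promoter windows of the same length. A match is a run of letters and not evidence of binding.

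Reads of Chil3 can be hard to tell from those of its neighbor Chil4, because the coding sequences were identical at 1141 of 1209 aligned positions (94.4%). The first 90 coding bases, within chr3:106164257-106167521 for Chil3 and chr3:106214442-106219464 for Chil4 (both minus strand, spans that include an intron), are shown with the differing bases in capitals.
Chil3 coding start: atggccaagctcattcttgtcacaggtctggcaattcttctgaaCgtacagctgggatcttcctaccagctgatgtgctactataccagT
Chil4 coding start: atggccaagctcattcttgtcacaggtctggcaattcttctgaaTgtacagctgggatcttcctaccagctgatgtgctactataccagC
Of the 1450 windows of 90 bases in the Chil3 transcript, 74 also occurred in Chil4, and 90 bases was the length of the cDNA read. Only 3 UMIs were assigned to Chil4 in all cells against 29973 to Chil3. Chil1 shared 52% of aligned coding positions with Chil3 and no window of 90 bases.

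Both genes were expressed mainly by macrophages. Of the 3406 Chil1 UMIs counted, 95.0% lay in macrophages, and of the 29973 Chil3 UMIs 97.0% did, which makes 8.80 Chil3 UMIs for each Chil1 UMI before any adjustment for transcript length. Clusters 2 and 5 together held 71.3% of the Chil1 UMIs. Lymphocytes, which should lack both proteins, gave the background. The 8 clusters that carried the T cell markers, called T cells here (10407 cells), had 0.576 CPM of Chil1 and 6.54 CPM of Chil3. Most of these counts lay in cluster 12, which also led with hemoglobin genes and held 15 of the 17 Chil1 UMIs and 171 of the 193 Chil3 UMIs. Without it T cells had 0.0742 CPM of Chil1 (2 UMIs) and 0.816 CPM of Chil3. Cluster 24, which the fixed markers left unnamed and which was led by natural killer receptor genes such as Ncr1 and Klra8, held 0 Chil1 UMIs and 4 Chil3 UMIs in 1614 cells.

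The 2 genes had different leading clusters. With all strains pooled, Chil1 was at 151 CPM in the granulocytic cluster 16, then at 23.9 CPM in cluster 4, 20.6 CPM in cluster 2, 14.6 CPM in cluster 5 and 12.6 CPM in cluster 21. The order of clusters 4 and 2 differed by strain. Chil1 was at 59.0 CPM in cluster 4 and 28.8 CPM in cluster 2 of CC036, but at 9.51 and 21.5 CPM in CC075. In CC001, CC007 and CC080 cluster 4 was slightly below cluster 2. Of the 770 Chil1 UMIs in cluster 2 of CC001, 399 came from the aPD1 tumor of pool 2, whose cluster 4 held 4. Cluster 4 held only 15 Chil1 UMIs in CC075 and 16 in CC080. Chil3 was at 630 CPM in cluster 4, with 153 CPM in cluster 16, 125 CPM in clusters 21 and 2 and 111 CPM in cluster 5. Of the 86 Chil3 UMIs of cluster 16, 55 came from the CC001 isotype tumor of pool 12 alone. The place of cluster 16 above clusters 21, 2 and 5 rests on that tumor. In cluster 4, 7 of 8 classical monocyte genes and 7 of 8 non-classical monocyte genes were higher than in all macrophages. Plac8 of the first list was at 3704 CPM and Ace of the second at 105 CPM, while Fn1 (974 against 1003 CPM) and Cx3cr1 (117 against 295 CPM) were the exceptions. Of 10 granulocyte genes 6 were higher in cluster 4, among them S100a9 (36.5 against 3.20 CPM) and S100a8 (98.7 against 15.1 CPM). The share of all genes higher in cluster 4 than in all macrophages was not counted, so these counts are a description only. Cluster 4 made up 7.18% of macrophages and held 28.9% of all Chil3 UMIs. Cluster 26, the second largest macrophage cluster with 17007 cells, was low in both, at 1.87 CPM of Chil1 and 14.1 CPM of Chil3.

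**Figure D1:**
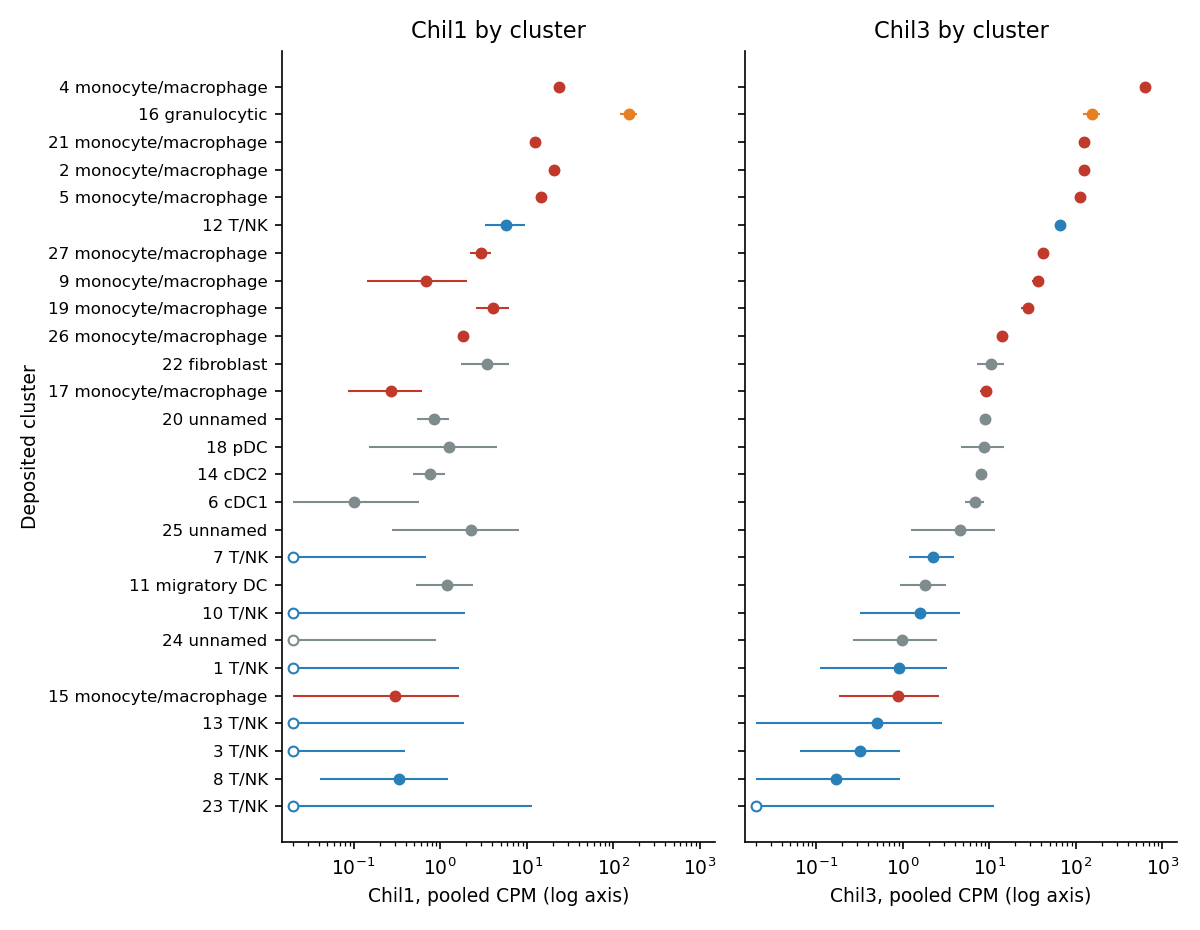
Level of Chil1 and of Chil3 in each deposited cluster, in CPM of all cells of the cluster on log axes, with 95% Poisson intervals as bars, which cover counting error only. Red points are macrophage clusters, orange the granulocytic cluster 16, blue the T cell clusters and grey the others, and open points mark clusters with 0 counts. Cluster 16 leads for Chil1 at 151 CPM and cluster 4 for Chil3 at 630 CPM.

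Chil1 in macrophages separated the strains into a group that expressed it and a group near 0. Macrophages of B6, CC002 and CC079 held 19 Chil1 UMIs among 119821939 UMIs in all, or 0.159 CPM with a 95% Poisson interval of 0.0955 to 0.248, and those of the other 5 strains held 3215 among 181187050, or 17.7 CPM with an interval of 17.1 to 18.4. Each of the 18 tumors of the first group had 0 to 3 UMIs, 5 of them having 0. Of the 30 tumors of the second group only 1 had none, and it held 30 macrophages, so that its depth allowed a level of up to 64.4 CPM.

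The order of the strain means ran from CC007 to CC002. CC007 averaged 34.2 ± 25.2 CPM (SD, n = 4), with 30.6 and 51.2 CPM in its isotype tumors and 0 and 55.1 CPM in its aPD1 tumors, the 0 being the tumor with 30 macrophages. CC001 averaged 23.3 ± 27.8 CPM (n = 8, lowest 5.31, median 12.5, highest 87.9), and its highest tumor stood apart from the rest, the next being at 36.2 CPM. CC036 followed with 21.9 ± 9.37 CPM (n = 6, lowest 10.3, median 22.6, highest 36.0). These 3 strains overlapped throughout, so their order was not resolved beyond the spread between tumors.

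CC075 averaged 11.6 ± 7.45 CPM (n = 6, lowest 4.44, median 8.57, highest 23.2). CC080 was the lowest of the expressing strains at 5.73 ± 4.34 CPM (n = 6, lowest 2.41, median 4.44, highest 14.3). The gap below CC080 was the only one between neighbors in the order at which the tumors did not overlap. This gap in means was 5.57 CPM, and 5.54 CPM without the 3 tumors under 500 cells. B6 had 0.162 ± 0.141 CPM (n = 6, lowest 0, median 0.192, highest 0.361), CC079 had 0.141 ± 0.112 CPM (n = 6, lowest 0, median 0.115, highest 0.335) and CC002 had 0.121 ± 0.119 CPM (n = 6, lowest 0, median 0.115, highest 0.312). All 3 overlapped each other. T cells of the same 3 strains held 1 Chil1 UMI, or 0.0910 CPM with a 95% Poisson interval of 0.0023 to 0.507, and without cluster 12 they held 0, which allows up to 0.304 CPM, so at this depth the Chil1 counts of these macrophages cannot be told from background.

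**Figure D2:**
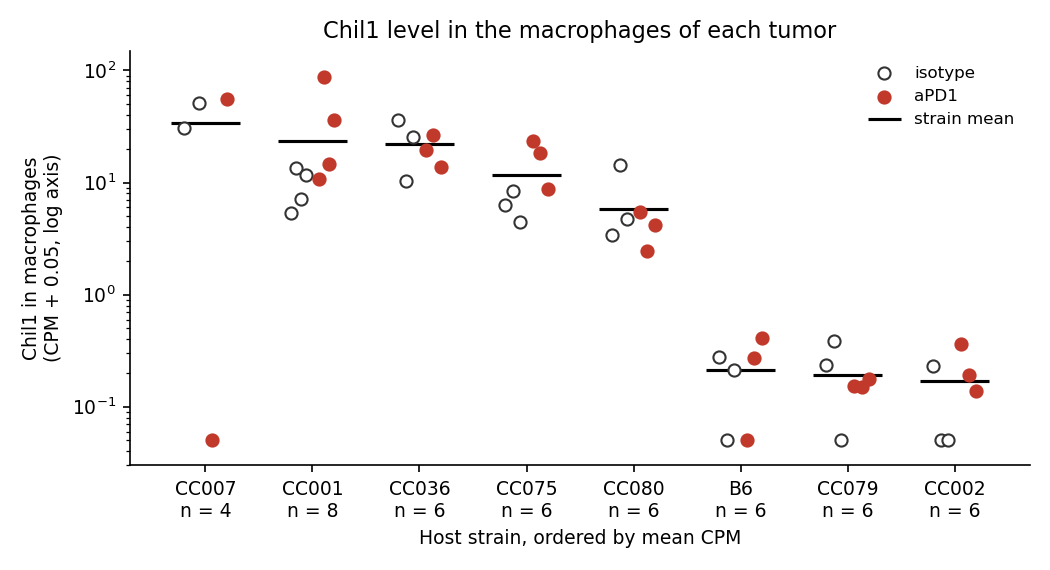
Chil1 level in macrophages of each tumor, in CPM on a log axis with 0.05 CPM added so that zeros can be drawn, by host strain and treatment, with the strain mean as a line. The tumors of B6, CC002 and CC079 sit at or below 0.361 CPM, and apart from the CC007 tumor with 30 macrophages those of the other strains sit at 2.41 CPM or above.

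The contrast was present between tumors sequenced in the same library. In pool 2 the CC001 macrophages held 626 Chil1 UMIs and the CC079 macrophages 4, a ratio of CPM of 249 (95% interval from counting 96.9 to 918). Of the 626 UMIs, 550 came from the aPD1 tumor at 87.9 CPM. The isotype tumors of that pool were at 13.4 CPM in CC001 and 0.335 CPM in CC079. In pool 7 the CC007 macrophages held 601 UMIs and the B6 macrophages 2, a ratio of 281 (77.3 to 2322). In pool 12 the counts were 344 for CC001 and 1 for CC002. The smallest contrast of this kind was in pool 3, with 71 UMIs for CC080 and 3 for CC002, a ratio of 16.2 (5.34 to 80.6). In pools 4, 9, 10 and 11, which joined 2 expressing strains, the ratios lay between 1.26 and 1.51. In pool 5, which joined CC002 and CC079, each strain had 1 Chil1 UMI.

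The share of macrophages with at least 1 Chil1 UMI followed the same division. It was 10.9% in CC007, 6.14% in CC036, 6.04% in CC001, 3.30% in CC075 and 1.5% in CC080, against 0.0747% in B6, 0.0709% in CC079 and 0.0594% in CC002. The share in T cells was 0.135%, and 0.0101% without cluster 12, with a median depth of 1945 UMIs per T cell against 3481 in macrophages. With every macrophage thinned to 1000 UMIs, which left out 4279 of 68059 cells, the shares of the expressing strains ran from 0.704% to 4.75% and those of the other 3 strains from 0.0139% to 0.0255%. Each of the 19 positive cells of B6, CC002 and CC079 carried exactly 1 UMI, and in the other strains 67.9% of 1994 positive cells did, with up to 20 UMIs in a cell.

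Macrophages of these 3 strains held few or no Chil1 UMIs in every macrophage cluster. Among the 30 combinations of a macrophage cluster with B6, CC002 or CC079, 18 had 0 Chil1 UMIs and none had more than 4. Some were too shallow to show a low level. A count of 0 in CC002 allows up to 16.6 CPM in cluster 9 and 22.5 CPM in cluster 15. Among the 50 combinations with the other strains 15 had 0, and the highest level was 74.1 CPM. In cluster 4, where Chil3 was highest in pooled cells, Chil1 reached 57.3 ± 32.5 CPM in CC001 (n = 8) and 55.3 ± 16.7 CPM in CC036 (n = 6), 56.5 ± 44.6 CPM in CC007 (n = 4), 15.95 ± 14.7 CPM in CC075 and 7.17 ± 7.71 CPM in CC080 (both n = 6). Cluster 4 of CC002 held no Chil1 UMI in 485 cells, which allows up to 2.89 CPM.

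**Figure D3:**
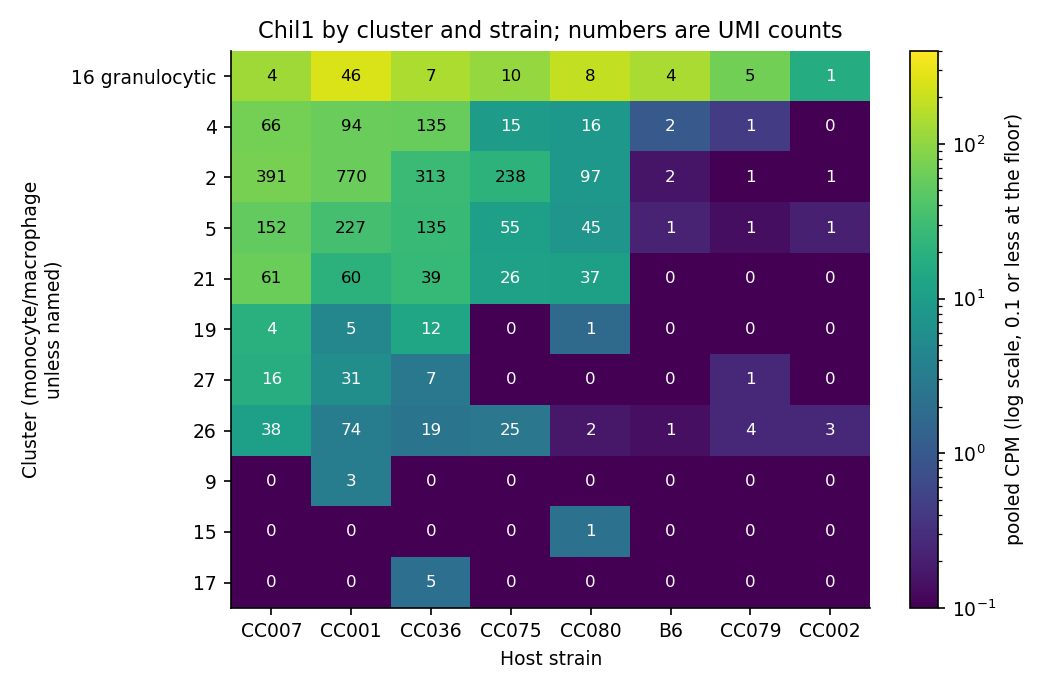
Chil1 level by cluster (vertical axis, the macrophage clusters and the granulocytic cluster 16) and host strain (horizontal axis), coloured by CPM of the pooled cells on a log scale with a floor of 0.1 CPM, with the UMI count written in each cell. B6, CC002 and CC079 hold at most 4 UMIs in any macrophage cluster, and each has Chil1 UMIs in the granulocytic cluster.

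In granulocytic cells Chil1 was detected in cells assigned to all 8 strains. Cluster 16 of B6, CC002 and CC079 held 10 Chil1 UMIs in 138 cells, 61.8 CPM with an interval of 29.6 to 114, and that of the other strains held 75 in 391 cells, 187 CPM with an interval of 147 to 235. The 10 UMIs were 4 in B6, 5 in CC079 and 1 in CC002, and all came from pools 1, 6 and 12, each shared with an expressing strain. In those pools, picked because they hold these UMIs, the same 3 strains had 117 CPM of Chil1 in 68 granulocytic cells, 0.120 CPM in macrophages and 0.283 CPM (1 UMI) in T cells. Pool 5, which held only CC002 and CC079, had 0 Chil1 UMIs in 32 granulocytic cells with 29954 UMIs in all, which allows up to 100.2 CPM, and those cells held 3 Chil3 UMIs. Whether hashtag misassignment within a pool contributed to these counts was not tested.

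Chil3 did not divide the strains in this way. All 48 tumors had Chil3 in macrophages, and the strain means lay between 43.5 and 173 CPM, with overlapping tumors for every pair of neighbors in the order. The highest and lowest means differed by 130 CPM, and by 142 CPM without the 3 tumors under 500 cells. CC080 averaged 173 ± 149 CPM (n = 6, lowest 30.0, median 142, highest 423) and B6 averaged 148 ± 52.1 CPM (n = 6, lowest 107, median 135, highest 248). CC036 averaged 131 ± 65.6 CPM and CC007 127 ± 90.0 CPM, the latter including a tumor at 258 CPM that rests on 12 UMIs.

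The lower strains of Chil3 were CC075 with 92.0 ± 63.4 CPM (n = 6), CC001 with 82.5 ± 102 CPM (n = 8, lowest 22.8, median 33.8, highest 324), CC079 with 50.4 ± 19.5 CPM (n = 6, lowest 19.3, highest 76.6) and CC002 with 43.5 ± 31.1 CPM (n = 6, lowest 20.9, highest 104). B6 is at the low end for Chil1 and near the top for Chil3. Of the 28 pairs of strains, 12 had tumors that did not overlap for Chil1 and 2 had such tumors for Chil3, namely B6 above CC002 and B6 above CC079. Without the 3 tumors under 500 cells, which include the CC007 tumor with no Chil1 UMI, these counts were 17 and 5, and CC007 averaged 45.7 ± 13.2 CPM of Chil1 and 84.0 ± 28.6 CPM of Chil3 (n = 3). Both genes were selected on their strain levels. How many pairs of strains other genes separate was not counted, so these counts are a description only.

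**Figure D4:**
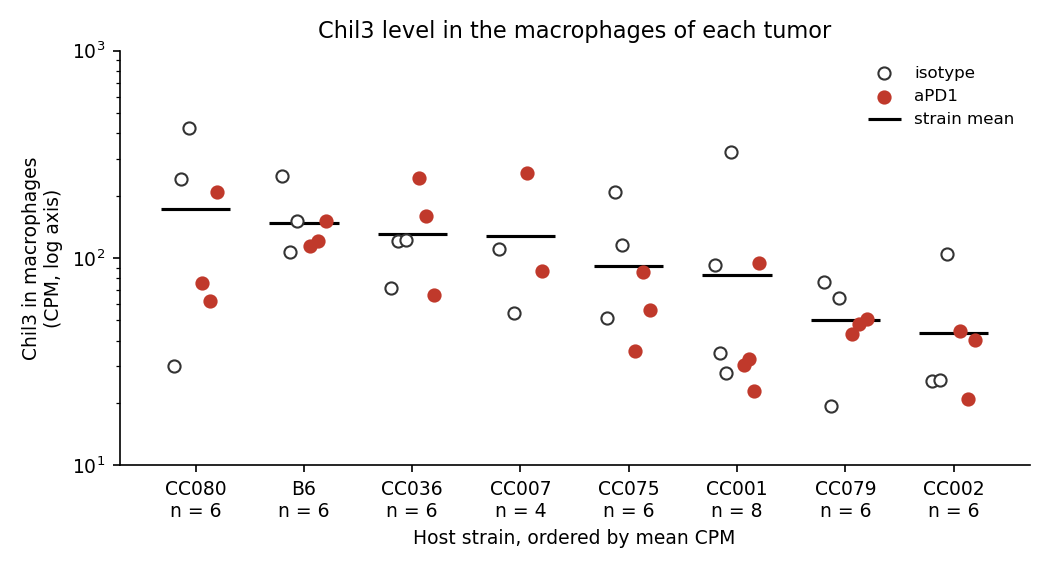
Chil3 level in macrophages of each tumor, in CPM on a log axis, by host strain and treatment, with the strain mean as a line. The tumors run from 19.3 to 423 CPM, and B6 (107 to 248 CPM) lies wholly above CC002 and CC079.

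Cluster 4 contributed unequally to Chil3 in different tumors. Its share of a tumor's macrophages ran from 1.78% to 36.7% with a median of 6.60%. It held between 8.70% and 88.4% of a tumor's macrophage Chil3 UMIs, with a median of 26.7%. Both upper ends came from small tumors, CC007 aPD1 of pool 6 (30 macrophages) and CC002 isotype of pool 12 (43 Chil3 UMIs). Among tumors of at least 500 cells the highest shares were 17.5% (B6 isotype, pool 6) and 53.2% (CC001 isotype, pool 12). Within cluster 4 Chil3 averaged 820 ± 250 CPM in B6, 610 ± 305 CPM in CC080 and 356 ± 72.7 CPM in CC079 (n = 6 each). CC001 averaged 737 ± 976 CPM there (n = 8, lowest 188, median 330, highest 3043), and the highest tumor, isotype of pool 12, held 1364 Chil3 UMIs in 95 cells.

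In the strains with Chil1, a Chil3 UMI was present in 29.8% of the 1994 macrophages with a Chil1 UMI and in 14.8% of the 38337 without, a description of cells and not a test, with median depths of 3918.5 and 3515 UMIs. The order was the same in each of the 5 strains, from 21.9% against 8.38% in CC001 to 44.5% against 18.5% in CC036. Within cluster 2 alone the shares were 26.5% and 20.8%. Across tumors the macrophage levels of the 2 genes had a Pearson r of 0.08 over 48 tumors of log2(CPM + 1), and across the 27 clusters an r of 0.86, both descriptions of points that share libraries.

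The genes most like each member also differed between those views. Over tumors, Chil1 was most like Gm8797 (r = 0.63), Ndrg1 (0.60), Fbxo42 (0.56), Slc7a2 (0.55), a transporter of arginine, and Ctse (0.55), a protease of chromosome 1, among 7880 genes compared. Chil3 was most like Klf9 (0.77), Clint1 (0.74), Srgn (0.73), Gda (0.72) and Osm (0.72), a cytokine of myeloid cells. Over clusters, Chil1 was most like Rab44 (0.91), Fpr2 (0.89), Csf3r (0.89), the receptor of granulocyte colony-stimulating factor, Hp (0.88) and Msrb1 (0.87). Chil3 was most like Gm9733 (0.94), Fpr2 (0.94), Prdx5 (0.91), Thbs1 (0.90) and F10 (0.90), among 8735 genes.

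Other members of the GH18 family had low or even levels in macrophages. Of the 10 family genes in the table, the lysosomal chitobiase Ctbs was at 19.3 CPM and Chid1 at 14.2 CPM, with strain levels of 15.5 to 21.4 CPM and 11.3 to 17.4 CPM. The true chitinases were near 0, with 14 UMIs of Chit1 (chitotriosidase) and 1 UMI of Chia1 (acidic mammalian chitinase) in all macrophages. Chil4 had 3 UMIs, Chil5 was at 0.0498 CPM, Ovgp1 at 0.618 CPM and Chil6 at 0. These values are CPM of 5′ counts and are not adjusted for length.

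The neighbors of Chil1 on chromosome 1 were mostly too low to compare between strains. Of the 5 genes on each side, 7 had fewer than 100 UMIs in macrophages, among them Chit1. None of the 10 had pooled strain levels of B6, CC002 and CC079 all on one side of the other strains, a separation shown by 1.58% of the 25307 genes with at least 1 UMI in macrophages and by 1.5% of the 14062 with at least 100. Ppfia4 ran from 18.5 CPM in CC036 to 63.1 CPM in CC007 with B6 at 51.7 CPM, and Tmem183a ran from 24.8 to 30.8 CPM over the strains. Btg2, an early response gene, ran from 174 to 514 CPM. Of the 10 neighbors of Chil3, 2 of low level, Pifo and Dennd2d (2.28 to 3.49 CPM), had strain levels in which those 3 strains lay to one side, Pifo with only 94 UMIs in all, and Cept1 ran from 56.0 to 81.8 CPM.

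Among the reported receptors and partners of Chil1, macrophages had 1688 CPM of Lgals3, 650 CPM of Cd44 and 90.8 CPM of Tmem219. Il13ra2 was at 0.0166 CPM, Ptgdr2 at 0.116 CPM and Ager at 0.757 CPM. The 14 genes of alternative activation did not all share a highest or a lowest strain. Of these, 10 were highest in CC036, among them Arg1 (1053 CPM), and none was highest in CC080, which had the highest Chil3 mean. For Chil3 the CC080 tumors of pool 11 were at 208 CPM (aPD1) and 423 CPM (isotype), and those of its other pools at 30.0 to 240 CPM. At the other end 6 were lowest in CC079, 3 in CC002, 3 in CC001, 1 in B6 and 1 in CC080. CC079 and CC002 also had the lowest Chil3 means, 50.4 and 43.5 CPM. How many of all macrophage genes are highest or lowest in each strain was not counted, so the counts by strain are a description only. Arg1 was lowest in CC079 (464 CPM), and Retnla was lowest in CC002 (6.15 CPM) and highest in CC079 (72.2 CPM). In cluster 4, the leading Chil3 cluster, 7 of the 14 were higher and 7 lower than in all macrophages. The transcription factor Klf4 was at 411 against 231 CPM and the receptor chain Il4ra at 128 against 91.8 CPM, while Arg1 was at 99.0 against 711 CPM and Retnla at 1.16 against 27.3 CPM. The granulocyte list, summed over its 10 genes in macrophages, ran from 26.0 to 145 CPM in tumors of B6, CC002 and CC079 (median 44.2) and from 25.9 to 267 CPM in the others (median 57.5), and its part in the Chil1 levels was not tested.

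The response to aPD1 was tested on counts summed per tumor, with the strain as covariate and p-values adjusted over all genes tested. In macrophages of 48 tumors neither gene passed the threshold of 0.05. The log2 fold change of aPD1 over isotype was 0.76 ± 0.30 (SE) for Chil1 and -0.51 ± 0.28 for Chil3, both with an adjusted p of 1.00 in edgeR. No gene of 12510 passed, so 0% were called, 373 had an unadjusted p under 0.05, and DESeq2 also called 0. The Chil1 value was 0.46 ± 0.32 in DESeq2, and the Chil3 value was -0.32 without cluster 4 and -0.33 without CC001. Of the 24 pairs of tumors of the same strain and pool, Chil1 was higher in the aPD1 tumor in 16 and Chil3 in 8. For Chil1, 9 of these pairs belong to B6, CC002 and CC079, where the sign rests on 0 to 3 UMIs, and in the expressing strains 10 of 15 pairs were higher.

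The pairs pointed one way in some strains. Chil1 was higher in the aPD1 tumor in 4 of 4 pairs of CC001, where isotype and aPD1 values were 5.31 and 10.6 CPM in pool 1, 13.4 and 87.9 CPM in pool 2, 7.12 and 14.7 CPM in pool 4 and 11.5 and 36.2 CPM in pool 12. It was also higher in 3 of 3 pairs of CC075, from 6.32 to 23.2 CPM in pool 9, from 8.43 to 18.3 CPM in pool 10 and from 4.44 to 8.71 CPM in pool 11. The ranges of the isotype and aPD1 tumors overlapped in CC001 and did not overlap in CC075. Chil1 was also higher in 3 of 3 pairs of CC002, where every tumor was at 0.312 CPM or below. How often other genes have all pairs of a strain one way, or ranges that do not overlap, was not counted. With an aPD1 term for each strain, a fit added after the data had been seen, Chil1 differed by 2.05 ± 0.49 in CC001 (log2, adjusted p = 0.168, 0.0154% of 13010 genes called) and by 1.45 ± 0.60 in CC075 (adjusted p = 0.255, 0.461% called). Without CC001 the log2 fold change over the remaining strains was 0.21.

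Chil3 was lower in the aPD1 tumor of the same pairs of CC001 and CC075, while in CC002 it was higher in 1 of 3 pairs. In CC001 the isotype and aPD1 values were 92.8 and 30.4 CPM in pool 1, 34.9 and 32.6 CPM in pool 2, 27.8 and 22.8 CPM in pool 4 and 324 and 94.8 CPM in pool 12. In CC075 they were 51.4 and 35.8 CPM in pool 9, 208 and 85.3 CPM in pool 10 and 116 and 55.9 CPM in pool 11. The differences were -1.39 ± 0.69 in CC001 (adjusted p = 0.701) and -1.03 ± 0.79 in CC075 (adjusted p = 0.583). No test of Chil3 in a single strain passed, and none of Chil1 in the 5 expressing strains, the lowest adjusted p being that of Chil1 in CC001. In B6, CC002 and CC079 the Chil1 counts of 0 to 3 UMIs per tumor left no test that could pass. The same tumors enter the tests of both genes.

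**Figure D5:**
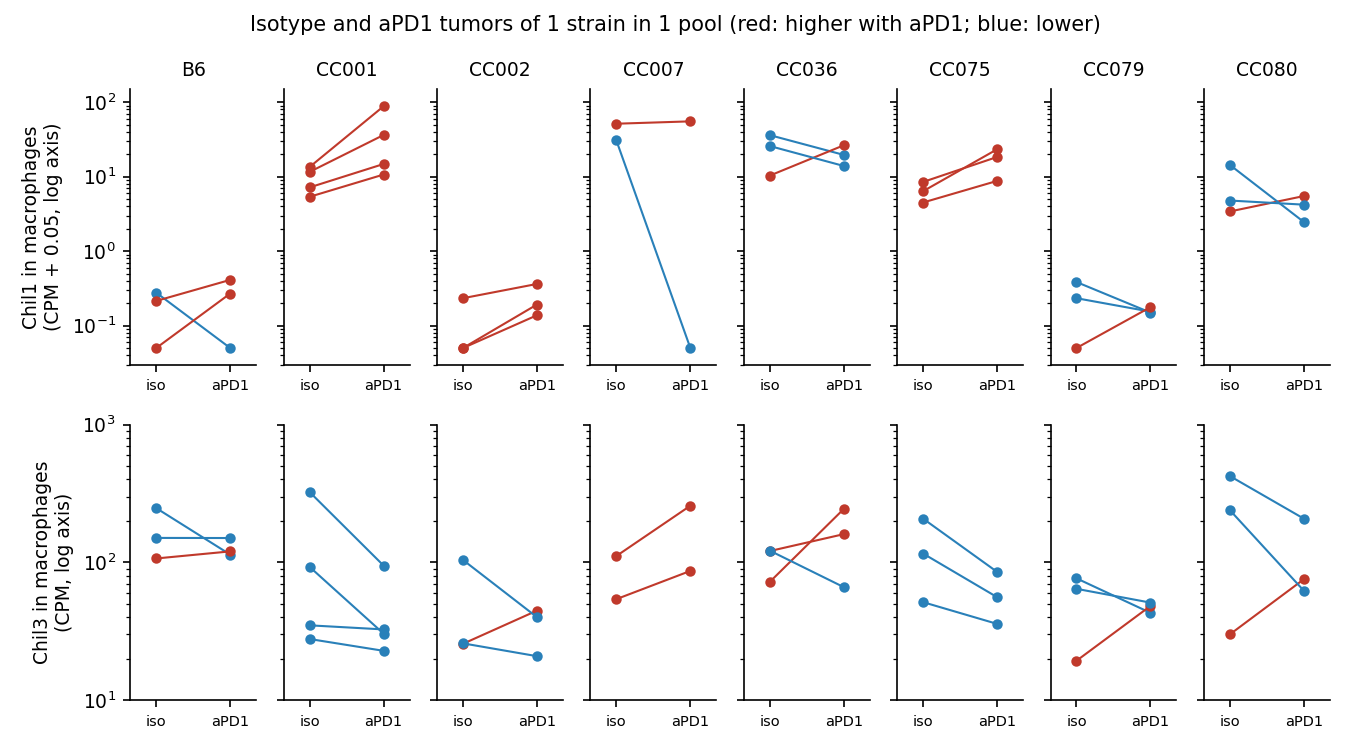
Isotype and aPD1 tumors of the same strain and pool joined by a line, for Chil1 and Chil3 in macrophages, in CPM on log axes, with 0.05 CPM added for Chil1. Red lines are higher and blue lines lower in the aPD1 tumor, and the 4 pairs of CC001 and 3 pairs of CC075 are red for Chil1 and blue for Chil3.

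The study set strains in which aPD1 slowed tumor growth (CC001, CC002 and CC075, responders) against CC036, CC079 and CC080 (non-responders). In the 38 tumors of these strains the aPD1 effect on Chil1 was 2.22 ± 0.57 larger in responders on the log2 scale, which did not pass the adjustment (adjusted p = 0.353 in edgeR, range over the alternative settings 0.0998 to 0.843). The difference for Chil3 was -0.74 ± 0.68 (adjusted p = 0.70), and it was -0.40 without pool 12, -0.36 without CC036 and -1.18 without CC080. The test called 1 of 12302 genes, 0.00813%, which was neither Chil1 nor Chil3, and 1345 had an unadjusted p under 0.05 in edgeR. CC002 and CC079 contributed hardly any Chil1 counts, and in CC002 all 6 tumors were at 0.312 CPM or below.

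Within cluster 4 the changes were -0.16 ± 0.27 for Chil1 and -0.40 ± 0.27 for Chil3 (log2, 44 tumors, both adjusted p = 1.00), with 0% of 5516 genes called in edgeR, 247 at an unadjusted p under 0.05. Without pool 12 they were 0.084 and -0.052. With all pools the granulocyte genes S100a9 and S100a8 had changes of -3.70 and -2.06, and the list a median of -1.31 over 4 genes with none called. The CC001 isotype tumor of pool 12, at 3043 CPM of Chil3 in cluster 4, also had the highest granulocyte sum in macrophages (267 CPM), whose part in the change was not tested. Chil3 was lower in the aPD1 tumor in 4 of 4 pairs of CC001 there, and Chil1 was higher in 2 of the 4. The CC001 pairs include the isotype tumor of pool 1, which had 15 cells of cluster 4 and was not in the fit. Chil3 was also lower in 3 of 3 pairs of B6 and 2 of 2 of CC007. In CC075 it was lower in 2 of 3, rising from 674 to 758 CPM in pool 11. It was lower in 2 of 3 pairs in both CC002 and CC036, and in 1 of 3 in both CC079 and CC080. In B6, CC002 and CC007, 1 pair each includes a tumor with fewer than 20 cells of cluster 4. The granulocytic cluster had at least 20 cells in only 7 tumors and left 1 residual degree of freedom. Only CC001 had both treatments among them, so the contrast is that of 1 isotype tumor (115 cells) with 1 aPD1 tumor (27 cells) of pool 12. Chil1 did not pass the filter on low counts there, and without the filter its change was -2.15 ± 1.26 (adjusted p = 1.00). Chil3 passed it mainly through the CC001 isotype tumor of pool 12, which had 55 Chil3 UMIs in 115 cells, and both aPD1 tumors had 0, so its fitted change is set by the zeros and is not given as a size (adjusted p = 0.469, 1.54% of 714 genes called).

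None of the gene lists had a member past the threshold in macrophages. Of the tested members, 4 of the GH18 family, 3 of the Chil1 partners, 14 of alternative activation, 8 of classical monocytes, 8 of non-classical monocytes and 4 of granulocytes, 0 rose and 0 fell. Their median log2 changes were 0.04, 0.05, -0.01, -0.02, -0.02 and -0.30, beside -0.0046 over all genes. In the comparison of responders with non-responders the medians, in the same order, were -0.12, 0.20, 0.40, 0.37, 0.32 and -0.27 beside 0.01 over all genes, again with 0 members called. In cluster 4 none was called either. In cluster 16, with 1 pair of tumors behind the contrast, the list counts are not given.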

How the data were processed

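The labels describe 5′ single-cell RNA libraries of hashtagged, frozen tumors. The deposited values were raw UMI counts per gene and cell, which the authors made with Cell Ranger and Seurat 5.0.1 on GRCm38 (mm10). Cells over 15% mitochondrial or 45% ribosomal reads had been removed, and the deposited clusters and demultiplexed tumor labels were used as given. How doublets had been treated was not tested here and no doublet caller was run.

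Chil1, Chil3 and all gene lists were chosen with earlier results of these data known. Genes were named by list membership, by position (the 5 genes on each side of Chil1 and of Chil3) and by likeness (the 5 highest Pearson r of log2(CPM + 1), over tumors and over clusters). A cluster was placed in a class from fixed markers, at least 3 of which had to reach 100 CPM. CPM is the count of a gene for every 1000000 UMIs of the same summed cells, and a count of 0 allows up to 3 counts. Depth per tumor was 88816 to 17713491 UMIs, so intervals (95% Poisson or exact binomial for ratios) cover counting error only.

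Counts were summed per tumor, the replicate, and tested with edgeR 4.0.16 (TMM, filterByExpr, quasi-likelihood, R 4.3.3), with strain as covariate, at least 20 cells per tumor and Benjamini-Hochberg adjusted p under 0.05. The SE of an edgeR log2 fold change was derived as its absolute value divided by the square root of the F statistic of the test. That of DESeq2 is the SE which the program reports. The script was tested on simulated data. Alternatives were library sizes alone, no filter, DESeq2 1.42.0, the pair (same strain and pool) as a block, and leaving out each pool or strain. A further alternative added a term for pools 1 to 6 against pools 7 to 12, a division made here and not given by the labels. Isotype and aPD1 tumors of a strain shared a pool and hence a library, and 19 of 24 pairs had deviations from the group means correlated above 0.1 (r from -0.29 to 0.64, median 0.28, over 7880 genes). Amino acid sequences were not used here. The gene called in the comparison of responder with non-responder strains is not reported here.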

Additional observations from a re-analysis of the deposited data

Results flagged for a closer look

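Of 29 groups of 4 to 10 tumors screened for a single tumor far from the others, 7 had one, always the highest of its group. The screen's rate of about 1 in 20 holds for normally distributed values and was not checked for these counts. The 7 tumors are therefore listed as a description and not as an excess over chance. For Chil1 in macrophages these were the CC001 aPD1 tumor of pool 2 at 87.9 CPM (next highest 36.2 CPM) and the CC080 isotype tumor of pool 4 at 14.3 CPM (next 5.43 CPM). For Chil3 in macrophages they were the B6 isotype tumor of pool 6 at 248 CPM (next 151 CPM), the CC001 isotype tumor of pool 12 at 324 CPM (next 94.8 CPM) and the CC002 isotype tumor of pool 12 at 104 CPM (next 44.7 CPM), the last resting on 43 UMIs in 125 macrophages. In cluster 4 they were Chil1 in the CC079 isotype tumor of pool 2 at 3.77 CPM, which is 1 UMI where the other 5 tumors had 0, and Chil3 in the CC001 isotype tumor of pool 12 at 3043 CPM. The next of the 7 CC001 tumors with at least 20 cells of cluster 4 was at 428 CPM, and a CC001 isotype tumor of pool 1, with 15 such cells and 79 Chil3 UMIs, was left out there at 1095 CPM.

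Chil3 in macrophages had differences of opposite sign between aPD1 and isotype tumors in different strains. On the log2(CPM + 1) scale the mean change was 0.94 in CC007 (higher in 2 of 2 pairs), and it was -0.93 in CC001 (lower in 4 of 4) and -0.94 in CC075 (lower in 3 of 3). In the fit with an aPD1 term for each strain the CC007 value was 0.37 ± 1.15 (SE), and in cluster 4 Chil3 was lower in both CC007 pairs (mean -0.39). The difference between these strains was not tested, and 1 of the CC007 pairs includes the tumor with 30 macrophages.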

How the results depend on the processing

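Over all settings, 161 fits of Chil1 or Chil3 gave 0 adjusted p-values past the threshold. In macrophages the Chil1 change stayed positive in 32 alternatives, from 0.21 without CC001 to 1.07 in pools 1 to 6 alone, and from 0.49 to 0.89 when each pool was left out; that of Chil3 stayed negative, from -0.67 to -0.32. For responders against non-responders, the Chil1 difference ran from 1.77 to 2.55 over 24 alternatives, with DESeq2 giving 2.26 (adjusted p = 0.0998) and the block on pairs 1.93 (adjusted p = 0.261). The Chil3 difference ran from -1.18 to -0.36. The number of genes called in that comparison was 1, but 0 with library sizes alone, 6 with DESeq2, and 0 without CC001, CC075, CC036, CC079 or CC080, and 0 to 1 when each pool was left out (0 without each of pools 2, 3, 4, 5, 9, 10, 11 and 12). In cluster 4 the Chil1 change ran from -0.30 to 0.084 when each pool was left out and was positive without pool 12 (0.084), and that of Chil3 ran from -0.57 to -0.052 (without pool 12); the cause was not tested. In cluster 16 the calls dropped from 11 to 3 with no filter and to 1 with DESeq2; the fit could not be made with the block or without pools 10, 11 or 12. With the replicate block on pairs, the number of genes called was unchanged in each fit that could be made. The gap in Chil1 between CC080 and the highest of B6, CC002 and CC079, 5.57 CPM, ran from 3.64 to 6.24 CPM, and the matching gap in the share of macrophages with a UMI was 0.678 percentage points after thinning against 1.43 before. Depth limits the tumor with 53 cells and the granulocytic cells.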

Other observations

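The Chil1 gap was wider in cluster 2, the macrophage cluster with most Chil1 UMIs, than in all macrophages. There the 3 strains B6, CC002 and CC079 held 4 UMIs in 7742 cells (0.110 CPM) and the others 1809 in 11222 cells (35.0 CPM). Chil3 in the same cells was at 89.4 CPM and 150 CPM. Of the 1809 Chil1 UMIs, 399 came from the CC001 aPD1 tumor of pool 2. The Chil1 gap was also wider in cluster 4 (0.555 against 39.1 CPM), cluster 5 (0.179 against 24.2 CPM) and cluster 21 (0 against 20.5 CPM). It was narrower in the remaining macrophage clusters.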
